A study of Homo sapiens with 12 samples.

Results

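EDN3, TNFRSF11B, NXPH3, PCSK1, MYT1, NCALD, PLPPR4 and VAT1L are 8 genes of neural and secretory cells whose RNA was low in SW480 cells given GLY, alone or with PUE. SW480 is a line from a human colorectal adenocarcinoma. The genes were taken by their symbols and found as 8 of the 3699 genes in the deposited table. They had been picked from earlier results on these libraries, for low levels under GLY against no treatment, so that comparison is given as a description and supports nothing. RNA was sequenced in 12 libraries, 3 in each of 4 groups: cells given GLY and PUE together (GLY_PUE), cells given GLY, cells given PUE, and untreated cells. All were cultured with 10% FBS for 12 h and then kept for 12 h more with fresh medium that held the agents or none. The labels of the GLY libraries name 12, 13 and 14 h, and the sample descriptions count the name of the cell line upward although its own field says SW480 throughout. The abbreviations are kept as labelled, no dose is stated, and BER and WOG, which the protocol also names, were not analysed here. Nothing states that replicates were separate cultures, so each p measures the spread between libraries, which may be technical.

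Several of the genes take part in how neurons and endocrine cells make, release or sense signals. Peptide hormones are stored as precursors in dense core granules, cut by prohormone convertases and released when calcium rises, while other secreted proteins leave the cell without being stored. Colon epithelium holds few such endocrine cells, and colorectal cancer lines can carry RNA of neural or endocrine genes without being of those cell types. EDN3 (endothelin 3) is a secreted peptide needed by the neural crest cells that form the nerves of the gut. TNFRSF11B (osteoprotegerin) is a secreted decoy receptor for the ligands RANKL and TRAIL, and NXPH3 is a secreted ligand of neurexins. PCSK1 is a prohormone convertase, MYT1 a zinc finger transcription factor of neural and, in mice, pancreatic endocrine differentiation, and NCALD a calcium sensor of neurons. PLPPR4 is a membrane protein that modulates lysophosphatidic acid signalling at synapses in mice. VAT1L is named for its likeness to the vesicle protein VAT1.

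RefSeq windows of the 250 bases upstream of the annotated start (GRCh38.p14) were at hand for 4 of the 8 genes. Those of PCSK1 and VAT1L are shown because these were the only genes of the 8 whose levels overlapped between libraries with and without GLY. The PCSK1 window is chr5:96433249-96433498 on the minus strand and the VAT1L window chr16:77788314-77788563 on the plus strand, both written 5′ to 3′ along the gene. Capitals mark TGACGTCA, the full cAMP response element, a further TGACG, its core, and CTTTGA, the reverse of the TCF/LEF core TCAAAG.
PCSK1: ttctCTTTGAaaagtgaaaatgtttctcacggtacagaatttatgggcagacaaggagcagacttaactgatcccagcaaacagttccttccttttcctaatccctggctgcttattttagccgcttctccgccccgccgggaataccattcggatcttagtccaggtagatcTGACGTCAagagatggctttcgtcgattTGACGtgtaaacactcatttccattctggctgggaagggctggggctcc
VAT1L: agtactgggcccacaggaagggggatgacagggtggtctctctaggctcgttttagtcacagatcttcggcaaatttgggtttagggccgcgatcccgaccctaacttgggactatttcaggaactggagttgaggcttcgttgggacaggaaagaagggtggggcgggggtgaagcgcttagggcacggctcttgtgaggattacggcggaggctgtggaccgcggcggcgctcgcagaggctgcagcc
Both strands were searched. In PCSK1, TGACGTCA began 77 bases upstream of the start, the further TGACG 49 bases and CTTTGA 246 bases upstream, and TGACGTCA itself contains TGACG on both strands. Of 35116 RefSeq windows of this length, 1.65% held TGACGTCA, 21.2% held TGACG or its reverse CGTCA, and 11.2% held TCAAAG or its reverse. None of the motifs was found in the VAT1L window, in a second PCSK1 window, or in the windows of PLPPR4 and MYT1. GC content was 48% for the PCSK1 window shown and 60% for VAT1L, against a median of 58% over all windows. A match describes letters only, and nothing in these libraries measures binding.

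Library totals, recovered as described under processing, lay between 19.7 and 21.4 M reads, so that a count of 0 in a library allows up to 0.152 CPM (reads scaled by that total), counting error only. Every gene of the table meets the authors' threshold in at least 1 comparison, so it is a selected list and high shares of called genes describe that list. In GLY_PUE against PUE the median gene tested lay at a log2 fold change of -1.05. TMM scaling within the table, which centres that median near 0, is given beside results it changes. Of the colon epithelial markers looked for, 2 of 13 were in the table, CDX2 and VIL1, both transcribed in every library. Their summed level was 13.5 to 15.4 CPM in GLY_PUE, 12.1 to 20.8 in GLY, 70.7 to 96.3 in PUE and 70.2 to 94.5 in untreated libraries. In bulk RNA, fewer cells of a kind and less RNA per cell cannot be told apart.

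Across all libraries, the 8 genes were low wherever GLY was present. For 6 of them, EDN3, TNFRSF11B, NXPH3, MYT1, NCALD and PLPPR4, each of the 6 libraries with GLY lay below each of the 6 without it, against 57.7% of the 3429 genes tested. PCSK1 and VAT1L overlapped. The lowest library without GLY exceeded the highest with GLY 33.9-fold for TNFRSF11B, 22.8-fold for NCALD, 11.3-fold for EDN3, 10.3-fold for NXPH3, 10.0-fold for PLPPR4 and 2.73-fold for MYT1. These counts include the GLY and untreated libraries by which the genes were picked and are given as a description.

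**Figure D1:**
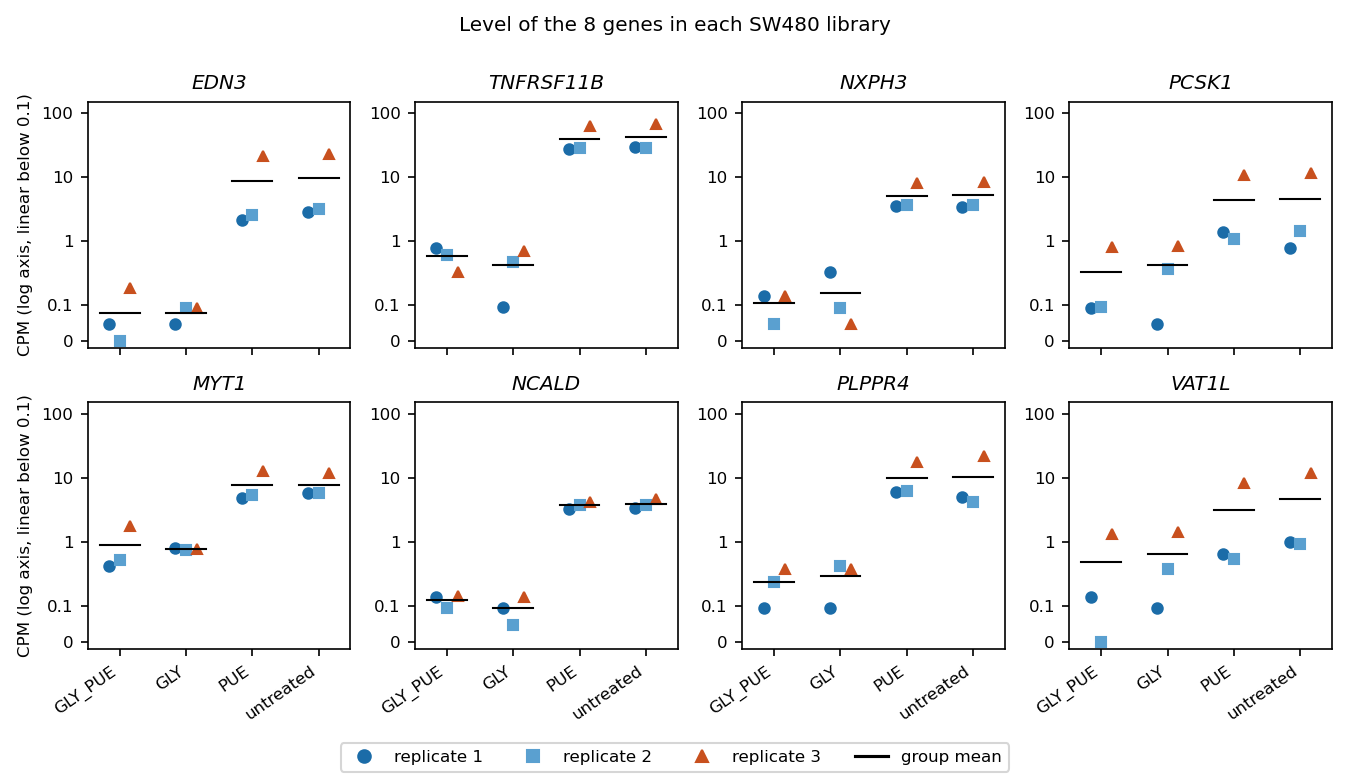
Level of each gene in each library, in CPM on a log axis that is linear below 0.1, by group and replicate, with the group mean as a line. The 6 libraries with GLY lie below the 6 without it in every panel but those of PCSK1 and VAT1L, and replicate 3 is the highest library of the PUE and of the untreated group for all 8 genes.

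GLY_PUE against PUE shares no library with the comparison behind the choice of genes, and asks what GLY did in cells that also had PUE. It is not an independent test. Earlier results on these libraries were known when the genes were picked, and the authors' threshold for the table covers this comparison too. RNA of 7 of the 8 genes fell (edgeR's quasi-likelihood test, Benjamini-Hochberg adjusted p under 0.05 over 3429 genes), against 57.3% of all genes tested. The 7 had log2 fold changes of -3.10 to -6.67, and VAT1L, at -2.70, did not pass. The median of the 8 was -5.10, against -1.05 over all genes. Under TMM scaling, EDN3, TNFRSF11B, NXPH3, MYT1, NCALD and PLPPR4 kept their calls, with -5.57 for EDN3 at one end and -2.07 for MYT1 at the other. A called decrease of at least 3 on the log2 scale was found for 2.71% of genes tested, and the 7 called genes all reached it. That cutoff lies close to the weakest of the 7, MYT1 at -3.10, so the share is a description. Under TMM scaling PCSK1, at -2.61, and MYT1, at -2.07, did not reach it. The groups did not overlap for 7 of the 8, all but VAT1L, against 65.8% of all genes.

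Among the secreted signals, TNFRSF11B had the most RNA. It had 0.796, 0.612 and 0.331 CPM in the GLY_PUE libraries, replicates 1, 2 and 3 in that order here and below, against 27.0, 28.4 and 61.9 CPM in the PUE libraries. The GLY libraries had 0.0945, 0.468 and 0.704 CPM, against 29.1, 28.4 and 66.9 CPM in untreated libraries. All libraries with GLY were below 1 CPM and all without it above 20 CPM. Without GLY, replicate 3 stood above the others in both groups. In GLY_PUE against PUE the log2 fold change was -6.06 with an SE of 0.63 (edgeR adjusted p = 3.03e-05, n = 3 each), 6th from the lowest of the genes tested, and it was -5.29 without the libraries numbered 3.

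EDN3 fell to a handful of reads. The GLY_PUE libraries held 1, 0 and 4 reads, against 43, 52 and 416 in the PUE libraries. The GLY libraries held 1, 2 and 2 reads, against 58, 64 and 461 in untreated libraries. Where GLY was absent, replicate 3 held 9.0 times the mean CPM of the others in PUE and 7.51 times in untreated libraries, and the groups with and without GLY did not overlap. The log2 fold change in GLY_PUE against PUE was -6.67 with an SE of 1.35 (edgeR adjusted p = 0.00123). In the pooled libraries GLY_PUE had 0.00923 of the PUE level (95% counting interval 0.00299 to 0.0217). Replicate 3 gave 4 of the 5 pooled GLY_PUE reads and 416 of the 511 pooled PUE reads, and the counting interval leaves out the spread between libraries. With that spread, the fitted 95% interval was -9.59 to -3.75 on the log2 scale. Leaving out GLY_PUE replicate 3 moved the log2 fold change to -8.19, and leaving out PUE replicate 3 to -4.80, with the call kept in both fits.

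NXPH3, the neurexin ligand, had 0.141, 0.0471 and 0.142 CPM in GLY_PUE libraries, against 3.48, 3.69 and 7.98 CPM in PUE libraries. It had 0.331, 0.0936 and 0.0469 CPM in GLY libraries, against 3.41, 3.68 and 8.48 CPM in untreated libraries. Its libraries with GLY held 1 to 7 reads each, and the groups with and without GLY lay far apart, with no overlap. The log2 fold change in GLY_PUE against PUE was -5.45 with an SE of 0.68 (edgeR adjusted p = 9.48e-05).

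PCSK1, the convertase that opens peptide precursors in granules, had the highest adjusted p of the called genes in the fit by group. It had 2, 2 and 17 reads in the GLY_PUE libraries, or 0.0937, 0.0942 and 0.805 CPM, against 28, 22 and 210 reads in the PUE libraries, or 1.39, 1.08 and 10.7 CPM. The GLY libraries had 1, 8 and 18 reads, against 16, 29 and 236 in untreated libraries. Replicate 3 was high in every group, so that GLY replicate 3, at 0.844 CPM, lay above untreated replicate 1, at 0.790 CPM. The log2 fold change in GLY_PUE against PUE was -3.70 with an SE of 1.30 (edgeR adjusted p = 0.0209). The call was lost under TMM scaling (log2 fold change -2.61, edgeR adjusted p = 0.115) and without PUE replicate 3 (-1.89, adjusted p = 0.178). It was also lost without GLY_PUE replicate 1 (-3.27, edgeR adjusted p = 0.0716) or GLY_PUE replicate 2 (-3.27, adjusted p = 0.0691). Without GLY_PUE replicate 3 the value was -5.45 (edgeR adjusted p = 0.0184). With the replicate number as a block it was -3.70 with an SE of 0.48 (edgeR adjusted p = 0.000116). Numbers 1 and 2 are not shown to pair these libraries.

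The transcription factor MYT1 kept more of its RNA than most of the others. It had 0.422, 0.518 and 1.75 CPM in GLY_PUE libraries, against 4.77, 5.46 and 13.0 CPM in PUE libraries. It had 0.803, 0.749 and 0.780 CPM in GLY libraries, against 5.83, 5.82 and 11.9 CPM in untreated libraries. The groups did not overlap, and the GLY_PUE mean was 11.4% of the untreated mean. The log2 fold change in GLY_PUE against PUE was -3.10 with an SE of 0.57 (edgeR adjusted p = 0.000727), and it was -4.02 without GLY_PUE replicate 3 and -2.51 without PUE replicate 3, both called.

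NCALD, the calcium sensor, had the narrowest spread between replicates where GLY was absent. Its GLY_PUE libraries had 0.141, 0.0942 and 0.142 CPM, or 2 to 3 reads each, against 3.23, 3.74 and 4.27 CPM in PUE libraries. Its GLY libraries had 0.0945, 0.0468 and 0.141 CPM, against 3.36, 3.73 and 4.68 CPM in untreated libraries. Replicate 3 was the highest without GLY by a small margin only, and no library with GLY held more than 3 reads. The log2 fold change in GLY_PUE against PUE was -4.83 with an SE of 0.38 (edgeR adjusted p = 8.84e-06), the smallest error and adjusted p of the 8.

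PLPPR4, the lipid signalling protein of synapses, had 0.0937, 0.235 and 0.379 CPM in GLY_PUE libraries, against 6.07, 6.30 and 17.5 CPM in PUE libraries. It had 0.0945, 0.421 and 0.375 CPM in GLY libraries, against 4.94, 4.23 and 22.1 CPM in untreated libraries. The groups did not overlap, and replicate 3 was again the highest without GLY. The log2 fold change in GLY_PUE against PUE was -5.37 with an SE of 0.84 (edgeR adjusted p = 0.000303), and -4.68 without PUE replicate 3, still called.

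VAT1L was the exception. It had 3, 0 and 28 reads in GLY_PUE libraries, or 0.141, 0 and 1.33 CPM, against 13, 11 and 166 reads in PUE libraries, or 0.646, 0.541 and 8.43 CPM. It had 0.0945, 0.375 and 1.45 CPM in GLY libraries, against 0.988, 0.945 and 12.0 CPM in untreated libraries. Replicate 3 of both groups with GLY lay above replicates 1 and 2 of both groups without it, yet within each replicate number the library with GLY was the lower. The log2 ratios of GLY_PUE to PUE for numbers 1, 2 and 3 were -2.03, -4.59 and -2.65, with 0.5 added to each count. Numbers 1 and 2 are not shown to pair these libraries, as given under processing. The fitted log2 fold change was -2.70 with an SE of 1.45 (edgeR adjusted p = 0.0994), and -2.68 with the replicate number as a block (adjusted p = 0.00101). Without the libraries numbered 3 it was -2.97 (adjusted p = 0.0269), without GLY_PUE replicate 3 -5.39 (adjusted p = 0.0367) and without PUE replicate 3 -0.28 (adjusted p = 0.861).

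In GLY against untreated, the comparison behind the choice of the genes, the log2 fold changes were -6.83 for EDN3, -6.60 for TNFRSF11B, -5.30 for NCALD, -5.10 for PLPPR4, -5.00 for NXPH3, -3.43 for PCSK1, -3.32 for MYT1 and -2.85 for VAT1L. In GLY_PUE against untreated, which shares the untreated libraries, they ran from -6.83 for EDN3 to -3.12 for MYT1, with VAT1L at -3.24. Called decreases made up 64.6% of genes tested in the comparison of GLY with untreated and 57.1% in that of GLY_PUE with untreated.

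In the fit by group, which has no term for the replicate number, PUE gave no called difference. In PUE against untreated, 0 of the 8 genes passed, against 0% of all genes tested (0 of 3429, with 12 at an unadjusted p under 0.05 by edgeR, and 0 by DESeq2 and by limma-voom, which had 4 and 14 at an unadjusted p under 0.05). The log2 fold changes were between -0.54, for VAT1L, and -0.02, for MYT1. The intervals differ much in width: NCALD, at -0.07, had a 95% interval of -0.68 to 0.55, and VAT1L one of -3.30 to 2.23. The authors' deposited table gives VAT1L a log2 ratio of -0.56 with a q-value of 0.00205 for PUE over untreated. Within numbers 1, 2 and 3, the VAT1L log2 ratios of PUE to untreated were -0.59, -0.78 and -0.51, all negative. With the replicate number as a block, the VAT1L log2 fold change was -0.60 with an SE of 0.42, and it was not called. The fit by group keeps the shift of number 3 in its spread. Its share of genes at an unadjusted p under 0.05 was below 0.05, so it is conservative here and does not show equal levels. Fitting only PUE and untreated libraries with the replicate block, chosen after seeing the data, gave 147 of 3260 genes at an unadjusted p under 0.05 by edgeR, with 1 called.

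Adding PUE to GLY gave no called difference either. In GLY_PUE against GLY, 0 of the 8 genes passed, against 0% of all genes (0 of 3429 by edgeR, with 57 at an unadjusted p under 0.05, and 0 by DESeq2 and limma-voom, with 49 and 59). The log2 fold changes ran from -0.49 for NXPH3 to 0.45 for TNFRSF11B, and the smallest adjusted p of the 8 was 0.959 (edgeR). The TNFRSF11B interval was -1.0 to 1.90 and that of EDN3, with 5 reads in each group, -4.33 to 4.34. A several-fold difference in these residual levels could thus have been missed, given the read counts and the spread between libraries. The difference between the GLY effects with and without PUE, tested as an interaction, was -0.45 to 0.54 on the log2 scale for the 8 genes, with 0 called, against 0% of all genes (0 of 3429 by edgeR, 33 at an unadjusted p under 0.05, and 0 by DESeq2 and limma-voom, with 22 and 35).

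**Figure D2:**
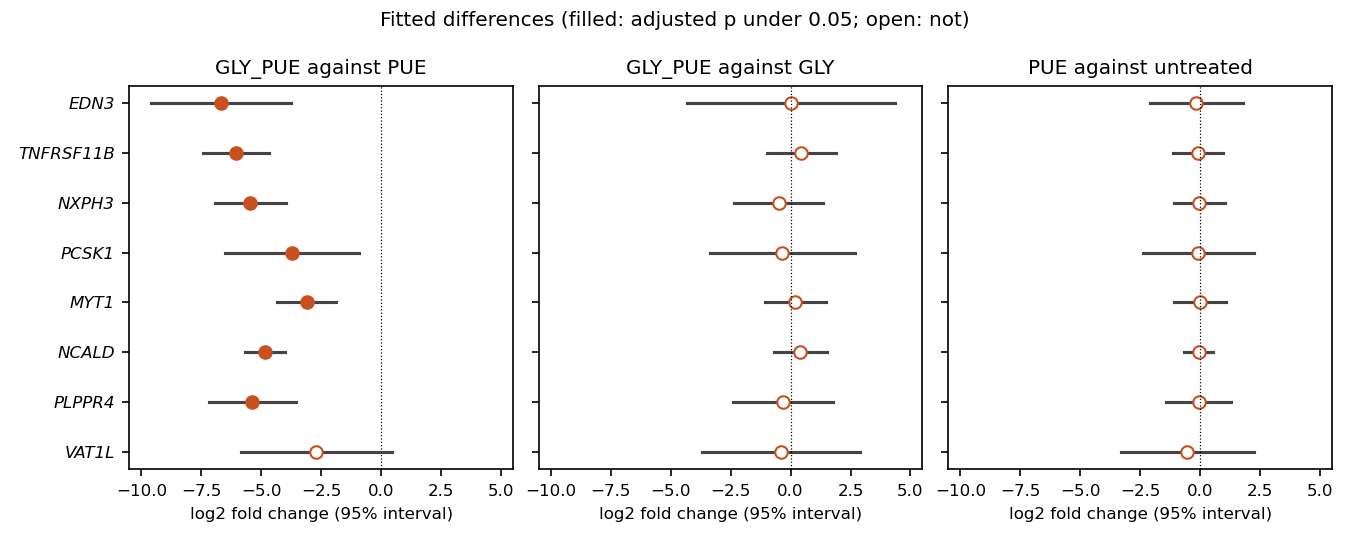
Fitted log2 fold changes of the 8 genes with 95% intervals as bars, for GLY_PUE against PUE, GLY_PUE against GLY and PUE against untreated, filled where the edgeR adjusted p is under 0.05. In the first panel 7 points are filled and lie between -3.10 and -6.67, and in the other panels none is filled and each interval spans 0.

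The 8 genes differed in how far they varied between replicates of 1 group. Over the table as a whole number 3 was the library that differed most from the others of its group in GLY_PUE, PUE and untreated cells, and replicate 1 in GLY. The squared difference of 2 libraries over that of counting error averaged 2.10 per gene between PUE numbers 1 and 2. It was 2.61 between untreated numbers 1 and 2, and 66.1 to 71.5 for either with number 3 of its group. Numbers 1 and 2 were thus close to counting error there, and number 3 is 1 library per group. The labels do not say what the number stands for. In GLY it goes with the labelled 12, 13 and 14 h, and the 2 cannot be told apart. With a term for number 3 beside the groups over all 12 libraries, 5 of the 8 genes were higher in number 3 than in numbers 1 and 2, against 18.1% of all genes tested. The log2 differences were 3.55 for VAT1L (SE 0.31, edgeR adjusted p = 0.000106), 3.01 for PCSK1 (SE 0.30, adjusted p = 0.000179) and 2.89 for EDN3 (SE 0.26, adjusted p = 0.000106). PLPPR4 at 1.65 (edgeR adjusted p = 0.00259) and MYT1 at 1.13 (adjusted p = 0.00464) followed. TNFRSF11B at 0.89 (edgeR adjusted p = 0.0570), NXPH3 at 0.92 (adjusted p = 0.0605) and NCALD at 0.38 (adjusted p = 0.164) did not pass. Without GLY replicate 1, both TNFRSF11B at 1.00 (edgeR adjusted p = 0.00203) and NXPH3 at 1.12 (adjusted p = 0.000713) passed. TNFRSF11B also passed without GLY replicate 2 (edgeR adjusted p = 0.0424), without GLY_PUE replicate 3 (adjusted p = 0.0110), with DESeq2 (adjusted p = 0.0207) and with limma-voom (adjusted p = 0.0448), and NXPH3 without GLY replicate 3 (edgeR adjusted p = 0.00971) and with limma-voom (adjusted p = 0.0262). The median gene lay at 0.23, and under TMM scaling the same 5 genes were called. The genes were chosen with this spread already known.

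Where GLY was absent, the reads were enough to read the pattern gene by gene. In untreated libraries, number 3 held 12.4 times the mean CPM of numbers 1 and 2 for VAT1L, 10.4 times for PCSK1, 7.51 times for EDN3 and 4.82 times for PLPPR4. For NXPH3, TNFRSF11B and MYT1 the ratio was 2.39, 2.33 and 2.05, and for NCALD 1.3. In the PUE libraries the ratio was 14.2 for VAT1L, 9.0 for EDN3 and 8.62 for PCSK1, and lowest for NCALD at 1.22. The ratio was above 2 in both groups for 7 of the 8 genes, all but NCALD, against 6.42% of genes tested. As the genes were chosen with this spread known, this share is a description. The same holds for the shares and p-values of number 3 that follow. In a fit of all 12 libraries with separate terms for number 3 without and with GLY, added after seeing the data, 7 of the 8 were higher in number 3 without GLY, against 14.3% of all genes, with log2 differences from 1.19 for TNFRSF11B and MYT1 to 3.72 for VAT1L. Under TMM scaling 3 of these calls were lost, TNFRSF11B (0.90, edgeR adjusted p = 0.0738), NXPH3 (0.92, adjusted p = 0.0938) and MYT1 (0.90, adjusted p = 0.0684).

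In the 6 libraries with GLY, by the other term of that fit, VAT1L and PCSK1 still held more RNA in number 3. The log2 differences were 3.18 for VAT1L (SE 0.53, edgeR adjusted p = 0.00887) and 2.41 for PCSK1 (SE 0.54, adjusted p = 0.0251), and these 2 of the 8 were called higher, against 7.58% of all genes. The number 3 libraries had 28 and 17 reads of VAT1L and PCSK1 in GLY_PUE, and 31 and 18 in GLY. The other genes had between -0.64, for NXPH3, and 1.48, for EDN3, and none passed. Without GLY replicate 1, MYT1 also passed, at 1.21 (edgeR adjusted p = 0.00739). EDN3, NXPH3 and NCALD held at most 7 reads in any library with GLY, whereas MYT1, at 1.02 (unadjusted p = 0.0197, edgeR adjusted p = 0.107), held 9 to 37. The difference in the number 3 effect with and without GLY was called for none of the 8 genes, against 3.35% of all genes, and was furthest from 0 for NXPH3 (-1.84, unadjusted p = 0.0432, edgeR adjusted p = 0.267). Without GLY replicate 1 that test called TNFRSF11B (-1.47, edgeR adjusted p = 0.00389).

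**Figure D3:**
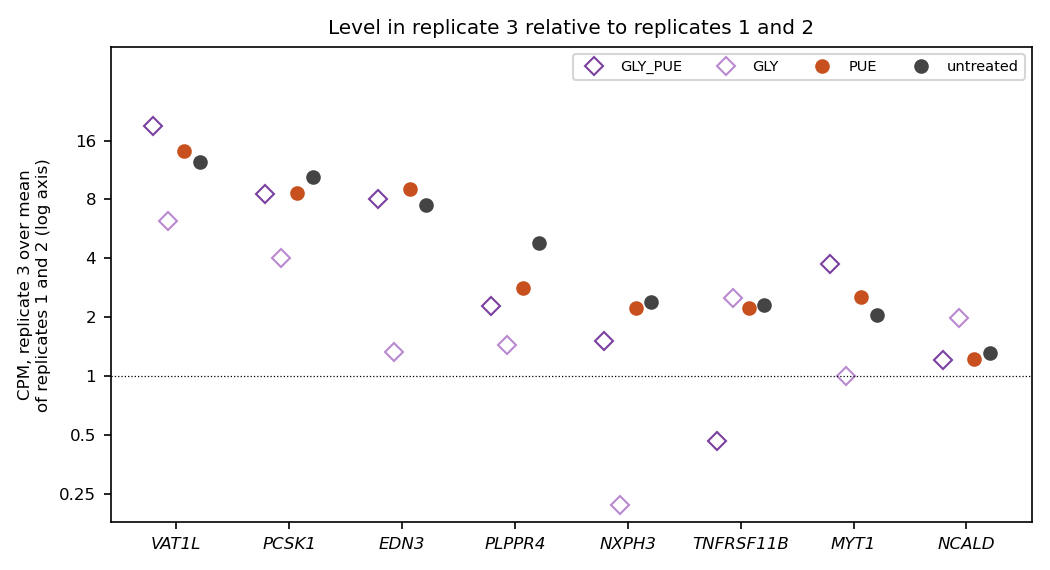
CPM of replicate 3 over the mean CPM of replicates 1 and 2, on a log axis, for each gene and group, with open diamonds for the groups with GLY and filled circles for those without. VAT1L and PCSK1 lie at 4.0 or more in all 4 groups, while NCALD lies at 1.22 in PUE and 1.3 in untreated libraries, and the open diamonds of EDN3, NXPH3 and NCALD rest on at most 7 reads a library.

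As a level per transcript length, which allows genes to be set side by side, TNFRSF11B stood first in untreated libraries with 18 ± 9.5 FPKM, followed by EDN3 with 3.72 ± 4.34, PLPPR4 with 2.10 ± 2.02, MYT1 with 1.43 ± 0.641, VAT1L with 1.24 ± 1.70, NCALD with 1.10 ± 0.189, NXPH3 with 0.943 ± 0.517 and PCSK1 with 0.923 ± 1.21 (SD, n = 3 each). TNFRSF11B lay above all the others in every untreated library, and from EDN3 down the ranges of neighbours in the order overlapped between libraries. In the GLY_PUE libraries no gene averaged above 0.25 FPKM, the TNFRSF11B value.

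The genes followed each other closely over the libraries. Over the 12 libraries the Pearson r of log2 CPM between the 28 pairs of genes was 0.624 to 0.982, with a median of 0.942, and all points share the split by GLY. Within the 6 libraries without GLY, r of the deviations from the group means was 0.884 to 0.997, with a median of 0.981, and there the points share the split between number 3 and the rest. Among the 2444 tested genes that averaged 1 or more on the log2 CPM scale, the one most like each gene over the 12 libraries was TLE4 for TNFRSF11B (r = 0.998), SYNGR1 for EDN3 (0.994), SUFU for NXPH3 (0.995), OSBPL5 for MYT1 (0.995), HOXC6 for NCALD (0.995) and LMO2 for PLPPR4 (0.993). For PCSK1 it was DPYSL3 (0.974) and for VAT1L IGF2 (0.951), both less alike. TLE4 had 1.70 to 3.37 CPM in the libraries with GLY, against 16.4 to 23.2 CPM in those without. IGF2, the growth factor, had 13.7 to 42.8 CPM with GLY, against 28.4 to 119 CPM without, and so overlapped as VAT1L did.

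Genes of the same pathways were lower in part. Over all the lists looked at, cell type markers included, 30 genes other than the 8 were tested in GLY_PUE against PUE, of which 21 fell and 3 rose, against 57.3% of all genes called lower, with a median log2 fold change of -1.34, against -1.05 over all genes. Under TMM scaling 8 were called lower and 6 higher, against 402 and 830 of all 3429 genes, so directions of genes near the median are relative to library totals. Of prohormone processing and dense core granule genes, 7 of 22 were in the table. Apart from PCSK1, 3 of 6 fell, which is below the 57.3% of all genes: the vesicle GTPase RAB3A (-2.57, edgeR adjusted p = 0.000919), the peptide amidating enzyme PAM (-1.57, adjusted p = 0.00724) and the granule priming factor CADPS (-2.0, adjusted p = 0.00828). Under TMM scaling only RAB3A of these kept its call (-1.55, edgeR adjusted p = 0.0363). The granins, which fill dense core granules, had positive values: SCG2 had 1.79 (edgeR adjusted p = 0.0587) and CHGB 1.01 (adjusted p = 0.0840), neither called, and both called higher under TMM scaling (2.79, adjusted p = 0.0105, and 2.03, adjusted p = 0.00209). CHGB had 10.0, 8.34 and 23.0 CPM in GLY_PUE libraries, against 5.47, 5.31 and 9.76 CPM in PUE libraries, a reading opposite to that of PCSK1 in the same libraries.

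Among the other convertases, PCSK5 had a log2 fold change of -1.02 (edgeR adjusted p = 0.00270), which was 0.00 under TMM scaling. PCSK4 had -1.10 (edgeR adjusted p = 0.0962). Of 10 endothelin genes, 3 were in the table, all of them ligands. EDN2 fell by 3.55 on the log2 scale (edgeR adjusted p = 0.00317), on levels of 0, 0 and 0.0947 CPM in GLY_PUE libraries, against 0.298, 0.590 and 0.406 CPM in PUE libraries. EDN1 had -1.03 (edgeR adjusted p = 0.0538), which was 0.00 under TMM scaling.

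The neural and endocrine transcription factors in the table, 5 of 18 with MYT1 among them, were all called lower in GLY_PUE than in PUE, against 57.3% of all genes. SOX4, a factor of progenitor cells, had a log2 fold change of -2.11 (edgeR adjusted p = 8.80e-05) and the stem cell factor SOX2 one of -2.17 (adjusted p = 0.00105), on 0.984, 0.753 and 0.521 CPM in GLY_PUE libraries, against 2.64, 2.90 and 4.73 CPM in PUE libraries. HES6 had -1.15 (edgeR adjusted p = 0.0181) and ISL1 -1.38 (adjusted p = 0.0308). Under TMM scaling HES6 (-0.10) and ISL1 (-0.36) lost their calls.

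Calcium sensors went both ways. Beside NCALD, 2 of the 11 on the list were in the table. VSNL1 fell, with 1.41, 3.06 and 3.50 CPM in GLY_PUE libraries, against 20.7, 20.2 and 44.2 CPM in PUE libraries (log2 fold change -3.41, edgeR adjusted p = 0.000294), and HPCAL1 rose by 1.43 (adjusted p = 0.000239). Of the 11 neurexophilins, neurexins and neuroligins, 5 were in the table and 4 tested, all 4, the chosen NXPH3 included, called lower, against 57.3% of all genes. These were NXPH3, NLGN2, a neuroligin of inhibitory synapses (-2.72, edgeR adjusted p = 0.000127), NXPH4 (-1.61, adjusted p = 0.00134) and the neurexin NRXN3 (-0.74, adjusted p = 0.0370), of which NRXN3 was at 0.27 and NXPH4 at -0.59 under TMM scaling, neither called. PLPP2, the other gene of the PLPPR4 family in the table, had -1.04 (edgeR adjusted p = 0.00475) and -0.03 under TMM scaling.

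The osteoprotegerin system split. TNFSF10 (TRAIL), a ligand that osteoprotegerin binds, fell with it, with 0.328, 0.283 and 0.284 CPM in GLY_PUE libraries, against 2.54, 2.95 and 2.03 CPM in PUE libraries (log2 fold change -3.05, edgeR adjusted p = 2.94e-05). The death receptor TNFRSF10B rose by 1.21 (edgeR adjusted p = 0.00135). The decoy receptor TNFRSF10D had -0.84 (edgeR adjusted p = 0.0325), but 0.17 under TMM scaling (adjusted p = 0.802), and TNFRSF10C had 1.03 (adjusted p = 0.193), but 2.03 under TMM scaling, called higher (adjusted p = 0.0307).

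Markers of other cell types were few in the table. Of 15 neuronal markers 2 were listed, NCAM1 and SYT1, and both fell in GLY_PUE against PUE (log2 fold changes -1.33, edgeR adjusted p = 0.00417, and -1.86, adjusted p = 0.00974), with both calls lost under TMM scaling. Their summed level was 9.93 to 13.4 CPM in GLY_PUE, 3.59 to 16.4 in GLY, 29.1 to 65.2 in PUE and 27.2 to 70.2 in untreated libraries. Of 15 enteroendocrine markers CHGB alone was listed, and of 10 fibroblast markers PDGFRB alone, at 1.74 to 3.74 CPM in GLY_PUE, 1.64 to 3.57 in GLY, 0.689 to 0.915 in PUE and 0.838 to 0.995 in untreated libraries. PDGFRB rose by 1.64 on the log2 scale in GLY_PUE against PUE (edgeR adjusted p = 0.00361). The colon factor CDX2 fell by 2.69 (edgeR adjusted p = 3.26e-05) and VIL1 by 1.36 (adjusted p = 0.00356), with VIL1 not called under TMM scaling (-0.32). The part of any of these in the levels of the 8 genes was not tested.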

How the data were processed

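RNA of 12 SW480 libraries was sequenced on BGISEQ-500 from 0.5 μg RNA, per the labels. The authors deposited 1 table of 3699 genes. It holds estimated counts per gene and library without normalization (58.2% whole numbers, within 0.005), an expression value that behaves as FPKM, and, per the file headers, the authors' log2 ratios, p-values and q-values between groups. All 3699 genes reach an absolute log2 ratio of 1 and a q-value of 0.001 or less in at least 1 of the authors' comparisons. Per the submitters' processing notes, TopHat and DESeq 1.32.0 were used, for steps the notes do not state. For the counter, annotation and genome build nothing is given in the sources used here.

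As only some genes of each library are listed, relative totals were derived by dividing counts by FPKM for 625 well covered genes (100 counts or more and 5 FPKM or more in every library). Lengths of 39 genes with a single transcript in GENCODE set the scale, at 20.2 M reads for untreated replicate 1 (95% interval 20.0 to 20.7). Listed genes held 15.1% ± 0.109 of reads in GLY_PUE, 14.8% ± 0.744 in GLY, 14.2% ± 0.509 in PUE and 14.2% ± 0.523 in untreated libraries (SD, n = 3). Counts were rounded and fitted with edgeR 4.0.16 in R 4.3.3 (robust quasi-likelihood, 4 groups, 12 libraries, recovered totals), leaving 3429 genes, all 8 described among them, and adjusted by Benjamini-Hochberg with a threshold of 0.05. The fit was repeated with TMM or RLE scaling, with DESeq2 1.42.0, with limma 3.58.1 (voom, and log2 of FPKM plus 0.1 or 1), other filters, only the libraries compared, a replicate block and each library left out. The scripts were tested on simulated data with the same spread setting for every gene and library and no shift of number 3. That test does not cover the spread between replicates seen here.

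The genes and lists were chosen with earlier results of these data known. Named beside the 8 are up to 4 genes per list with the smallest p in GLY_PUE against PUE and, for likeness, the top of 3 per gene. A result for 1 gene of the convertase list is not reported here. Deviations from group means of same-numbered libraries correlated at 0.298, 0.243 and 0.435 in GLY_PUE and PUE. In PUE and untreated cells they correlated at 0.671, 0.583 and 0.829. Number 1 of GLY_PUE with number 2 of PUE gave 0.307, and number 2 with number 1 gave 0.278. For PUE and untreated cells these were 0.559 and 0.511. Number 3 was thus set apart alike in these groups, while numbers 1 and 2 of GLY_PUE and PUE were not shown to be paired. The labels state no shared day or culture. Same-numbered libraries of GLY and untreated cells gave 0.0704, 0.0996 and 0.308.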

Additional observations from a re-analysis of the deposited data

How the results depend on the processing

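Of the values of the 8 genes under the alternatives, none changed direction where it had been called. In GLY_PUE against PUE, 180 of 190 kept their side of the threshold, 6 lost the call, all of PCSK1, and 4 gained it, all of VAT1L. In PUE against untreated (190 values), GLY_PUE against GLY (176) and the interaction (174) all stayed uncalled. DESeq2 gave no adjusted p to EDN3 and VAT1L in the treatment comparisons, so those are not counted. Scaling within the table changed the counts of called genes. TMM gave 1232 in GLY_PUE against PUE (830 higher and 402 lower, against 705 and 1964), 1158 in GLY against untreated and 1211 in GLY_PUE against untreated, where recovered totals gave 2669, 2890 and 2651. RLE gave 1250, 1188 and 1234. Under TMM, PCSK5 (0.00389), EDN1 (0.00494, uncalled in either fit), NRXN3 (0.27) and TNFRSF10D (0.17) turned positive in GLY_PUE against PUE, as did NRXN3 (0.24) and TNFRSF10D (0.15) under RLE; these lie near the shift of the median. With number 3 as a term, 804 genes were called (622 higher and 182 lower), and TMM gave 577 (250 higher and 327 lower). Leaving out 1 library gave 2189 to 3009 calls in GLY_PUE against PUE, 2406 to 2941 in GLY against untreated, 2132 to 2995 in GLY_PUE against untreated, 0 to 1 in GLY_PUE against GLY and in the interaction, and 340 to 1657 for number 3, with 1657 without GLY replicate 1, 521 without PUE replicate 1, 346 without PUE replicate 3 and 340 without untreated replicate 3. The cause was not tested. The replicate block gave 2949 calls in GLY_PUE against PUE, 3086 in GLY against untreated, 2926 in GLY_PUE against untreated and 0 in PUE against untreated, GLY_PUE against GLY and the interaction; among the 8 genes it changed the call of VAT1L alone. For GLY and untreated libraries the correlations do not show numbers 1 and 2 to be paired. Number 3 of GLY gave 0.308 with number 3 of untreated cells, against -0.221 and -0.295 with numbers 1 and 2. Fitting only PUE and untreated libraries with the replicate block, chosen after seeing the data, called 1 gene. Low counts limit the residual levels under GLY. On log2(FPKM + 1), which understates changes of low genes, GLY_PUE against PUE lay between -3.75 for TNFRSF11B and -0.54 for VAT1L.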
